A study of Mus musculus with 20 samples.

Results

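The 10 genes described here supply peptides to MHC class I molecules and were chosen by name, with a rule that rests on what their products are known to do and uses no measured value, although earlier results of these data were known when they were proposed, out of 55335 genes in the expression table. They fall into 5 roles: the catalytic subunits of the immunoproteasome (Psmb8, Psmb9 and Psmb10), the subunits of its activator PA28 (Psme1 and Psme2), the transporter that carries peptides into the endoplasmic reticulum (Tap1 and Tap2), the proteins that load and edit peptides there (Tapbp and Tapbpl), and a peptidase that trims them (Erap1). Class I molecules display short peptides on the cell surface, where CD8+ T cells read them. Most of these peptides are cut in the cytosol by the proteasome, and interferons are known to raise the immunoproteasome subunits, which take the places of the constitutive catalytic subunits in newly built proteasomes. Skeletal muscle fibers carry little class I on their surface when healthy, and its appearance there is a known feature of inflamed muscle.

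Bulk RNA sequencing was used to ask how the transcriptome of C2C12 myotubes, the fused muscle cells formed by a mouse myoblast line, differs when the clock repressors Per1 or Per2 are kept high. The 20 libraries form 4 groups of 5. Myotubes overexpressing Per1 were set against myotubes expressing Gfp with library numbers of the same series (the Per1 experiment), and myotubes overexpressing Per2 against a different group expressing Gfp (the Per2 experiment). Every culture was C2C12, was transduced with adenovirus on day 4 of differentiation and was collected 48 h post-transduction, and the Per viruses also carry Gfp. The methods give a higher viral concentration for the Per viruses than for the Gfp virus, so the amount of virus and the Per transgene cannot be told apart in either experiment. The cultures come from 1 cell line, and the methods place their RNA within an experimental replicate, so each p-value speaks to the spread between libraries of a group and to no wider source of variation. Whether the 5 libraries of a group came from separate cultures is not given in the sources used here, and that spread may be technical. The labels give the cell type as myoblasts. Group means of the 10 myotube markers examined ran from 12.52 (Mymx) to 19.12 (Des). Those of the 6 markers of proliferating myoblasts ran from 11.66 (Pax7) to 15.20 (Top2a). These levels were not used to tell the cell types apart.

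The values are regularized log2 (rlog) values, computed from the gene counts by the authors. A difference between group means is therefore a log2 difference, and the method draws it toward 0, most for genes with few reads. Read depth is unknown because the values hold no counts. Since rlog values are not scaled by gene length, levels are compared here between groups and not between genes. The rlog values were made separately for each experiment, so the size of a difference with Per1 was not tested against its size with Per2. The transgenes matched their labels, with Per1 at 19.39 to 19.64 in Per1 libraries and 15.22 to 15.30 in their Gfp libraries, and Per2 at 19.65 to 19.77 in Per2 libraries and 14.73 to 14.96 in theirs. The root mean square deviation of a library from its group mean lay between 0.038 and 0.055 over the genes tested, with no library far from the rest. Testing with limma was limited to genes whose mean rlog reached 3, and p-values were adjusted over 20559 genes in the Per1 experiment and 20628 in the Per2 experiment. A gene is said to be higher or lower if its adjusted p does not exceed 0.05, and is said to be called when its log2 difference is also at least 0.5 in size. All 10 genes passed the filter on low values in both experiments.

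Psmb9, Tap1, Psmb8 and Tap2 lie side by side in the class II region of the MHC on chromosome 17. In mouse genome build GRCm38.p6 (the RefSeq annotation of the build that the labels name as mm10), Psmb9 occupies chr17:34182030-34187330 on the minus strand, Tap1 chr17:34187556-34197225 on the plus strand, Psmb8 chr17:34198195-34201454 and Tap2 chr17:34204479-34216321, both on the plus strand. Tapbp lies on the same chromosome at chr17:33919478-33929290. Psme1 (chr14:55578494-55581527) and Psme2 (chr14:55587440-55591101) neighbour each other on opposite strands. The others are apart, with Psmb10 at chr8:105935728-105938392, Erap1 at chr13:74639573-74693205 and Tapbpl at chr6:125223927-125231860. Psmb9 and Tap1 are transcribed away from each other, and their starts in this annotation enclose a single short stretch of 225 bases that precedes both genes. In another annotation, GENCODE M39, the spans of Psmb9 and Tap1 overlap by 743 bases. The stretch is shown because both genes were higher in both experiments. It is written 5′ to 3′ on the strand of Tap1, at chr17:34187331-34187555. The next stretch holds the 250 bases before the start of Psmb8 (chr17:34197945-34198194, plus strand), the catalytic subunit with the largest difference. The last one holds the 250 bases before Psmb10 (chr8:105938393-105938642, minus strand), the catalytic subunit with the smallest. The sequences are RefSeq's, and capitals mark motif matches.
Psmb9-Tap1 between starts: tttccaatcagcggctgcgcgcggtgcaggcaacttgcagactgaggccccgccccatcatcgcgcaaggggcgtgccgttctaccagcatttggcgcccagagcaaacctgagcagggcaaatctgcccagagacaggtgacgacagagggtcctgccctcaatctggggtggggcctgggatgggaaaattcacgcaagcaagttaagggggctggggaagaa
Psmb8 upstream: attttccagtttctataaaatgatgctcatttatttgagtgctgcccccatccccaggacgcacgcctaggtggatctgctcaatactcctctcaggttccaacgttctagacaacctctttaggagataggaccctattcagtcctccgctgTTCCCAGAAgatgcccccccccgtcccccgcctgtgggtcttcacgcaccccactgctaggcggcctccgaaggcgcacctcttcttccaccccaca
Psmb10 upstream: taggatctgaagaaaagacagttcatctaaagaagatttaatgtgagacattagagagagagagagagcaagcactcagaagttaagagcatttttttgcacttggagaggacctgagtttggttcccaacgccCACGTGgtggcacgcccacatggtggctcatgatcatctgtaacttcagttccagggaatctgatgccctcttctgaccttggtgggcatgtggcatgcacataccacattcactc

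Motifs of 3 kinds were searched on both strands in windows that run from 250 bases before to 50 bases after an annotated gene start. They were the core of the interferon-stimulated response element (GAAA, any 2 bases, then GAAA again, which reads as TTTC, any 2 bases and TTTC on the other strand), the gamma-activated site GAS (TTCNNNGAA, a palindrome) and the E-box bound by CLOCK and BMAL1, the activators that PER proteins repress (CACGTG, also a palindrome). Windows were given for 8 of the 10 genes, and Tap2 and Tapbpl had none. Psme2 had 2 windows, each at its own annotated start. The window of Erap1 (chr13:74639603-74639902) lies inside the gene span given above, so its matches do not precede the start of that span. Over 32851 mouse promoter windows, 3.44% held the response element core, 8.3% the GAS and 7.15% the E-box. Among the 10 genes, Erap1 and Psme1 held the response element core, Psmb8 held a GAS (in capitals above), and Psmb10 (in capitals above) and Erap1 held an E-box. The windows of Psmb9, Tap1, Tapbp and Psme2 held no match to any of the motifs. A match describes the letters of a window and does not show binding.

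Genes of class I peptide supply had higher mRNA content in myotubes overexpressing Per1 than in myotubes expressing Gfp. All 10 were higher at the adjusted p alone, beside 20.1% of all genes tested, and for all 10 the lowest Per1 library exceeded the highest Gfp library, beside 14.8% of genes. The genes called were Tap1 and Psmb8, 2 of 10 beside 0.443% of genes. The median log2 difference over the 10 genes was 0.27, and over all genes tested it was 0.0011. With Per2, 9 of 10 were higher at the adjusted p alone, beside 18.6% of genes, and Psmb10 was the exception. None was called (limma), beside 0.325% of genes. An unadjusted p under 0.05 was reached by 9, beside 9266 of the 20628 genes tested. The groups were apart for 5 genes, beside 13.5% of genes, and the median difference was 0.23, against 0.00060 over all genes tested. RNA of whole cultures cannot tell more RNA per cell from more cells that express a gene.

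**Figure D1:**
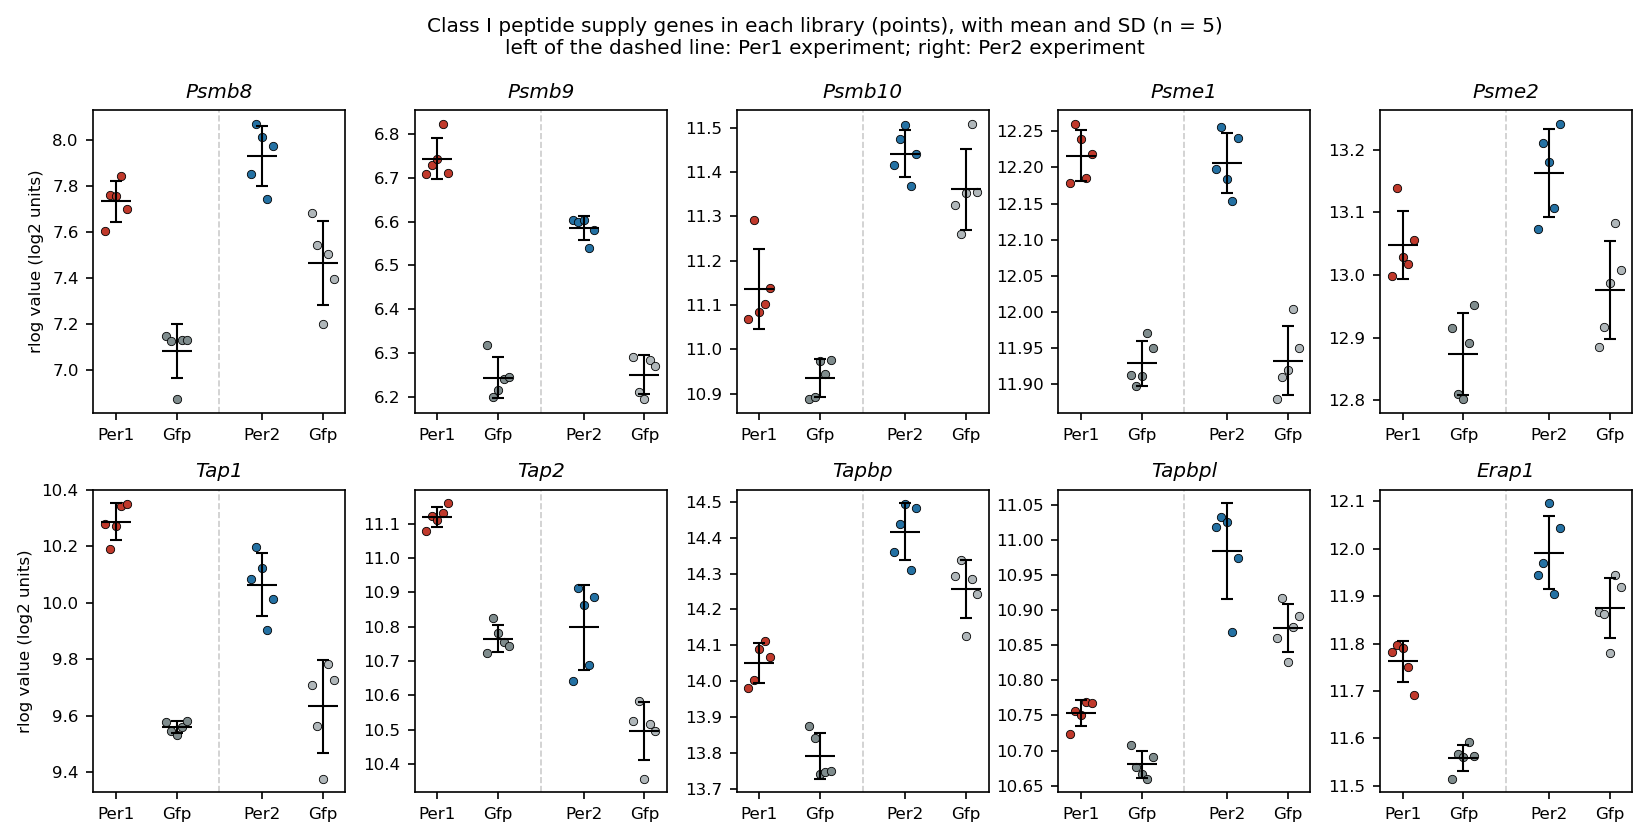
The rlog value of each of the 10 genes (vertical axes, log2 units, each panel with its own range) in every library, with Per1 and Gfp left of the dashed line and Per2 and Gfp right of it; points are libraries, long bars are means and whiskers are SD (n = 5). For Tap1 the Per1 libraries sit between 10.19 and 10.35 and their Gfp libraries between 9.53 and 9.58, while Psmb10 overlaps between Per2 and Gfp.

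Psmb8 encodes the immunosubunit beta5i, which replaces Psmb5 and cuts after hydrophobic residues. Its rlog value was 7.60, 7.76, 7.76, 7.84 and 7.70 in Per1 libraries 11 to 15, against 7.15, 7.13, 6.87, 7.13 and 7.13 in Gfp libraries 11, 13, 14, 15 and 16. The Per1 libraries were all above the Gfp libraries, of which library 14 stood below the other 4. The log2 difference was 0.65 (standard error 0.055, adjusted p = 3.9e-07, limma), which ranked 44 among the genes tested. In the Per2 experiment, Psmb8 was at 7.85, 8.07, 8.02, 7.75 and 7.98 in Per2 libraries 1 to 5, against 7.69, 7.54, 7.20, 7.51 and 7.40 in Gfp libraries 1 to 5. The groups were apart by 0.061, the distance between Per2 library 4 and Gfp library 1. The difference was 0.47 (standard error 0.079, adjusted p = 0.00038, limma), short of a call. Over the 17 alternative fits described below, it ran from 0.40 to 0.52, and Psmb8 stayed higher at the adjusted p in each. It was 0.52 without Gfp library 1 and 0.51 without Per2 library 4, the libraries nearest the other group, and Psmb8 was then called.

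Psmb9 encodes beta1i, the replacement of Psmb6. Its values were 6.71, 6.73, 6.74, 6.82 and 6.71 in Per1 libraries 11 to 15, against 6.32, 6.20, 6.22, 6.24 and 6.25 in Gfp libraries. No Gfp library came within 0.39 of the lowest Per1 library. The difference was 0.499 (standard error 0.031, adjusted p = 2.1e-08, limma), just under the threshold for a call. It was 0.501 with array weights, and between 0.502 and 0.517 when Gfp library 11 or Per1 library 11, 12 or 15 was left out, and Psmb9 was called in each of these fits. Over all 17 alternative fits the difference ran from 0.477 to 0.517. With Per2, Psmb9 was at 6.60, 6.60, 6.60, 6.54 and 6.58, against 6.29, 6.21, 6.19, 6.28 and 6.27 in the Gfp libraries. The Per2 libraries lay close together and above all Gfp libraries, with a difference of 0.34 (standard error 0.027, adjusted p = 5.8e-07, limma).

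Psmb10 encodes beta2i, which replaces Psmb7, and had the smallest difference of the catalytic subunits in both experiments. It was at 11.07, 11.29, 11.08, 11.10 and 11.14 in Per1 libraries 11 to 15, against 10.89, 10.89, 10.97, 10.94 and 10.98 in Gfp libraries. Per1 library 12 was the highest, and the groups did not overlap (difference 0.20, standard error 0.038, adjusted p = 0.00059, limma). With Per2 the values were 11.42, 11.47, 11.51, 11.37 and 11.44, against 11.33, 11.26, 11.35, 11.51 and 11.36 in Gfp libraries 1 to 5. Gfp library 4 was as high as the highest Per2 library, and the difference of 0.080 (95% interval -0.0052 to 0.17, adjusted p = 0.13, limma) did not pass the test. Over 17 alternative fits the difference ran from 0.055 to 0.12, and it passed in 1 of them. That was the fit without Gfp library 4, the highest of its group (0.12, adjusted p = 0.011, limma).

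A rise of an immunosubunit could be shared by its constitutive counterpart, so the difference between the rlog values of the 2 was taken in each library. The constitutive subunits themselves were not higher in either experiment. Psmb5 differed by -0.0015 with Per1 and -0.022 with Per2, Psmb6 by 0.014 and -0.022, and Psmb7 by -0.054 and -0.072, of which the last was lower at the adjusted p (0.042, limma). Psmb8 minus Psmb5 was -6.64 to -6.45 in Per1 libraries and -7.42 to -7.15 in Gfp libraries, a change of 0.65 (standard error 0.062). For Psmb9 minus Psmb6 the ranges were -8.10 to -7.92 with Per1 and -8.55 to -8.42 with Gfp (change 0.48, standard error 0.038), and for Psmb10 minus Psmb7 they were -3.91 to -3.79 and -4.14 to -4.10 (change 0.26, standard error 0.023). None of these ranges overlapped, and each change had the smallest p that groups of 5 and 5 allow (two-sided exact permutation test, p = 0.00794, adjusted over 6 pairs 0.0119). The absolute size of these differences carries gene length, so the change between groups is what can be read.

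With Per2 the same differences were also larger. Psmb9 minus Psmb6 was -8.23 to -8.12 in Per2 libraries and -8.62 to -8.40 in Gfp libraries, which did not overlap (change 0.36, standard error 0.042, exact permutation p = 0.00794, adjusted 0.0119). Psmb8 minus Psmb5 was -6.53 to -6.19 against -7.14 to -6.51, with 1 Gfp library inside the Per2 range (change 0.49, standard error 0.12, exact permutation p = 0.0159, adjusted 0.0159). Psmb10 minus Psmb7 was -3.60 to -3.45 against -3.73 to -3.59 (change 0.15, standard error 0.037, exact permutation p = 0.0159, adjusted 0.0159). Here the lower value of Psmb7 adds to the difference, and against the mean of the other core subunits the change of Psmb10 was 0.084 and did not pass (exact permutation p = 0.0714).

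**Figure D2:**
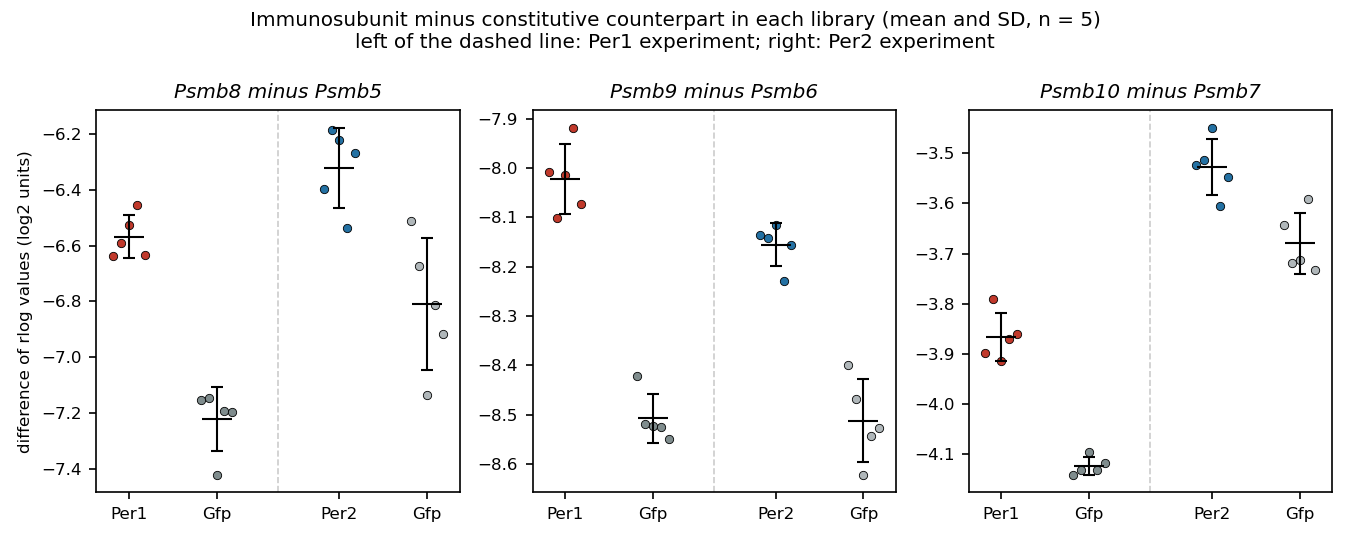
Immunosubunit minus constitutive counterpart in each library (vertical axes, difference of rlog values in log2 units), with Per1 and Gfp left of the dashed line and Per2 and Gfp right of it; points are libraries, long bars are means and whiskers are SD (n = 5). Per1 and Gfp libraries do not overlap in any of the 3 panels, and the Per2 and Gfp libraries are apart for Psmb9 minus Psmb6.

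The PA28 ring, which opens the end of the proteasome, is built from Psme1 (PA28 alpha) and Psme2 (PA28 beta). Psme1 was at 12.18, 12.26, 12.24, 12.19 and 12.22 in Per1 libraries 11 to 15, against 11.91, 11.90, 11.91, 11.97 and 11.95 in Gfp libraries, and at 12.20, 12.26, 12.18, 12.15 and 12.24 in Per2 libraries 1 to 5, against 11.88, 11.91, 11.92, 12.00 and 11.95 in theirs. The groups were apart in both experiments. The differences lay close to each other, at 0.29 with Per1 (standard error 0.022, adjusted p = 1.2e-07, limma) and 0.27 with Per2 (standard error 0.027, adjusted p = 3.4e-06, limma). Psme2 was higher by 0.17 with Per1 (standard error 0.032, adjusted p = 0.00051, limma) and by 0.19 with Per2 (standard error 0.039, adjusted p = 0.0017, limma), and in the Per2 experiment 1 Gfp library, at 13.08, reached just above the lowest Per2 library, at 13.07. Psme2 shares 22.7% of its 31-base sequences with Psme2b, a near copy, and how reads that match both were counted is not given in the sources used here. Psme2b itself differed by 0.16 and 0.21, so the value of Psme2 is uncertain to that extent.

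TAP1 and TAP2 pair in the membrane of the endoplasmic reticulum and pump peptides from the cytosol into it. Tap1 had the largest difference of the 10 genes with Per1. It was at 10.28, 10.19, 10.27, 10.34 and 10.35 in Per1 libraries 11 to 15, against 9.58, 9.55, 9.53, 9.56 and 9.58 in Gfp libraries, a gap of 0.61 between the nearest libraries. The difference was 0.73 (standard error 0.031, adjusted p = 3.5e-10, limma), which ranked 33 among the genes tested. With Per2, Tap1 was at 10.08, 10.20, 10.12, 9.90 and 10.01 in libraries 1 to 5, against 9.71, 9.57, 9.38, 9.78 and 9.73 in Gfp libraries 1 to 5. The Per2 libraries were still all above the Gfp libraries, but both groups were more spread than in the Per1 experiment, with SDs of 0.11 for Per2 and 0.16 for Gfp, against 0.064 for Per1 and 0.022 for its Gfp group. The difference was 0.43 (standard error 0.070, adjusted p = 0.00027, limma).

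Tap2 was at 11.08, 11.12, 11.11, 11.13 and 11.16 with Per1, against 10.72, 10.82, 10.78, 10.75 and 10.74 with Gfp. With Per2 it was at 10.64, 10.91, 10.86, 10.69 and 10.89, against 10.53, 10.58, 10.36, 10.52 and 10.50 with Gfp. The groups were apart in both experiments, by 0.25 with Per1 and by 0.058 with Per2, where Per2 libraries 1 and 4 lay nearest to the Gfp libraries. The differences were 0.36 (standard error 0.024, adjusted p = 4.5e-08, limma) and 0.30 (standard error 0.054, adjusted p = 0.0006, limma).

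Tapasin (Tapbp) ties empty class I molecules to the transporter and favours tightly bound peptides, and its relative TAPBPR (Tapbpl) edits peptides away from the transporter. Tapbp was at 13.98 to 14.11 in Per1 libraries and 13.74 to 13.88 in Gfp libraries (difference 0.26, standard error 0.031, adjusted p = 1.2e-05, limma). In Per2 libraries it was at 14.31 to 14.49 and in their Gfp libraries at 14.13 to 14.34, which overlapped (difference 0.16, standard error 0.041, adjusted p = 0.0067, limma). Tapbpl had the smallest difference of the 10 genes with Per1, 0.073 (standard error 0.020, adjusted p = 0.010, limma), and 0.016 separated the lowest Per1 library from the highest Gfp library. With Per2 its difference was 0.11 (standard error 0.032, adjusted p = 0.015, limma), and Per2 library 4, at 10.87, fell inside the Gfp range of 10.83 to 10.92. Tapbpl lost its place above the threshold in the Per1 experiment when each library was centred on its median (0.051, adjusted p = 0.077, limma).

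Erap1 encodes the aminopeptidase that trims the front ends of peptides inside the endoplasmic reticulum. It was at 11.69 to 11.80 in Per1 libraries and 11.52 to 11.59 in Gfp libraries (difference 0.20, standard error 0.023, adjusted p = 8.2e-06, limma). In Per2 libraries it was at 11.90 to 12.10, and in their Gfp libraries at 11.78 to 11.95 (difference 0.12, standard error 0.038, adjusted p = 0.025, limma). The Per2 groups overlapped, and the difference of Erap1 no longer passed when Gfp library 3 (0.093), Per2 library 3 (0.091) or Per2 library 5 (0.10) was left out.

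**Figure D3:**
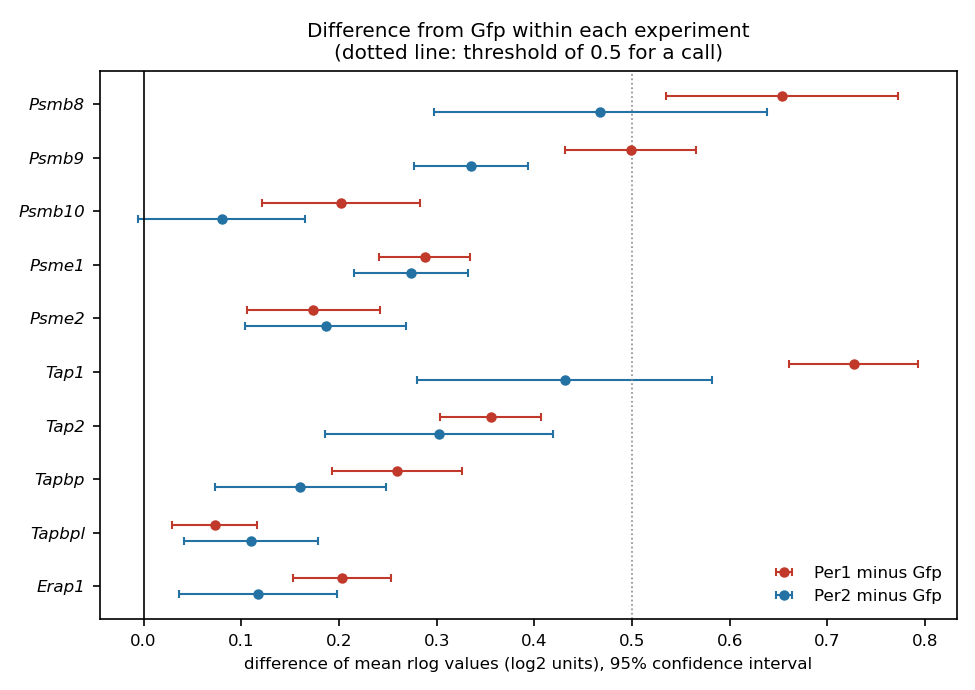
Difference of mean rlog values from Gfp (horizontal axis, log2 units) for the 10 genes, with Per1 minus Gfp above Per2 minus Gfp in each row; points are differences and bars are 95% confidence intervals from limma, and the dotted line marks 0.5. Tap1 and Psmb8 with Per1 (0.73 and 0.65) lie right of the dotted line, and the interval of Psmb10 with Per2 is the only one that reaches 0.

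Across the 10 genes, the difference was larger with Per1 than with Per2 for 8, the exceptions being Psme2 and Tapbpl. The spread within groups moved the other way. The SD was larger in the Gfp group of the Per2 experiment than in that of the Per1 experiment for 9 of 10 genes, and larger in the Per2 group than in the Per1 group for 8. No share over all genes was taken for these counts of larger differences and SDs, and the experiments were not tested against each other. The median standard error over the 10 genes was 0.031 in the Per1 experiment and 0.039 in the Per2 experiment, against 0.024 and 0.026 over all genes tested.

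In 3 of the 4 groups, a single library was the lowest for most of the 10 genes. Per2 library 4 was the lowest of its group for 8 of them and Per2 library 2 the highest for 5. Of the Gfp libraries in the same experiment, library 3 was the lowest for 7 and library 4 the highest for 5. In the Per1 experiment, Per1 library 11 was the lowest of its group for 8 genes. The Gfp libraries of that experiment showed no such order, since library 14 was the lowest for 4 genes and library 11 was the lowest for 3 and the highest for 4. No share over all genes was taken for these counts. Per2 library 4 also had the lowest median rlog of its group over all genes tested (10.22), while Gfp library 3 of that experiment and Per1 library 11 did not in theirs. The mean over the 10 genes was still apart between groups in both experiments, at 10.84 to 10.91 in Per1 libraries and 10.51 to 10.56 in their Gfp libraries, and at 10.86 to 11.02 in Per2 libraries and 10.61 to 10.78 in theirs.

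Of all genes tested, 9851 of 20559 with Per1 and 9266 of 20628 with Per2 had an unadjusted p under 0.05, the background for such counts below. Of the 11 other subunits of the 20S core, 1 was higher with Per1 (Psmb2, by 0.066, adjusted p = 0.015, limma). None was higher with Per2 at the adjusted p, where 1 had an unadjusted p under 0.05. Of the 17 subunits of the 19S regulator, which recognises and unfolds ubiquitin-tagged proteins, none was higher (limma). At the adjusted p, 10 were lower with Per1 and 6 with Per2, beside 20.6% and 17.5% of all genes. An unadjusted p under 0.05 was reached by 12 with Per1 and 8 with Per2, all in the lower direction (limma). Psmd11, a lid subunit, fell by 0.14 with Per1 (standard error 0.016) and by 0.12 with Per2 (standard error 0.016). The median over the 19S list was -0.049 with Per1 and -0.038 with Per2, and over the other 20S core subunits it was -0.0062 and -0.0039. Of 8 other activators, inhibitors and assembly factors, Psmf1 and Psmg1 were higher and Psme4 was lower with Per1, and none passed in either direction with Per2, where 1 had an unadjusted p under 0.05 (limma). The shares of all genes higher were 20.1% with Per1 and 18.6% with Per2, so 2 of 8 with Per1 is near the background.

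Downstream of the transporter, the class I chains were higher with the 10 genes. H2-K1, a heavy chain, was at 15.76 to 15.81 in Per1 libraries and 15.28 to 15.37 in Gfp libraries, and at 15.29 to 15.46 in Per2 libraries and 15.02 to 15.10 in theirs. The log2 differences were 0.46 with Per1 and 0.30 with Per2 for H2-K1, 0.42 and 0.29 for H2-D1, another heavy chain, and 0.42 and 0.23 for B2m, the light chain, and all of these groups were apart. Class I heavy chain genes resemble each other, and reads shared between them were not examined here. The chaperone calreticulin (Calr) was higher by 0.073 and 0.079, and the disulfide isomerase Pdia3 differed by 0.083 and 0.041, of which the second did not pass. Calnexin (Canx) fell by 0.051 with Per1 and differed by -0.024 with Per2. Thus 5 of 6 genes were higher and 1 was lower with Per1, beside 20.1% and 20.6% of all genes. With Per2, 4 were higher, beside 18.6% of genes, and none was called in either experiment. An unadjusted p under 0.05 was reached by 6 with Per1 and 4 with Per2 (limma), beside 9851 of 20559 and 9266 of 20628 genes tested.

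Of 7 cytosolic and endosomal peptidases that trim or destroy class I peptides, none was higher in either experiment. At the adjusted p, 2 were lower with Per1 and 1 with Per2 (limma). The same numbers had an unadjusted p under 0.05, beside 9851 of 20559 and 9266 of 20628 genes tested. With 7 genes, the counts at the adjusted p are not far from the shares of all genes at that threshold. Those shares were 20.1% higher and 20.6% lower with Per1 and 18.6% and 17.5% with Per2. The median over the 7 peptidases was -0.0099 with Per1 and -0.012 with Per2. Tpp2, a large cytosolic peptidase, fell by 0.10 with Per1 and 0.12 with Per2, and Lnpep, the endosomal relative of Erap1, fell by 0.20 with Per1 and differed by -0.012 with Per2. Lap3, Npepps, Blmh, Nrdc and Thop1 had adjusted p-values of 0.18 or more (limma).

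Among transcription factors and co-activators of the class I pathway, Nlrc5, the class I transactivator, was at 10.13 to 10.25 in Per1 libraries and 9.64 to 9.88 in Gfp libraries, and at 9.83 to 10.17 in Per2 libraries and 9.45 to 9.83 in theirs. It was higher by 0.45 (standard error 0.040) with Per1 and 0.38 (standard error 0.074) with Per2. Rfx5, the DNA-binding partner of Nlrc5, was higher by 0.27 and 0.16, and Irf1 by 0.13 and 0.079. Rfxank, Irf2 and Rfxap did not pass with Per1, while with Per2 Rfxank was higher (0.086) and Irf2 and Rfxap were lower (-0.090 and -0.072).

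**Figure D4:**
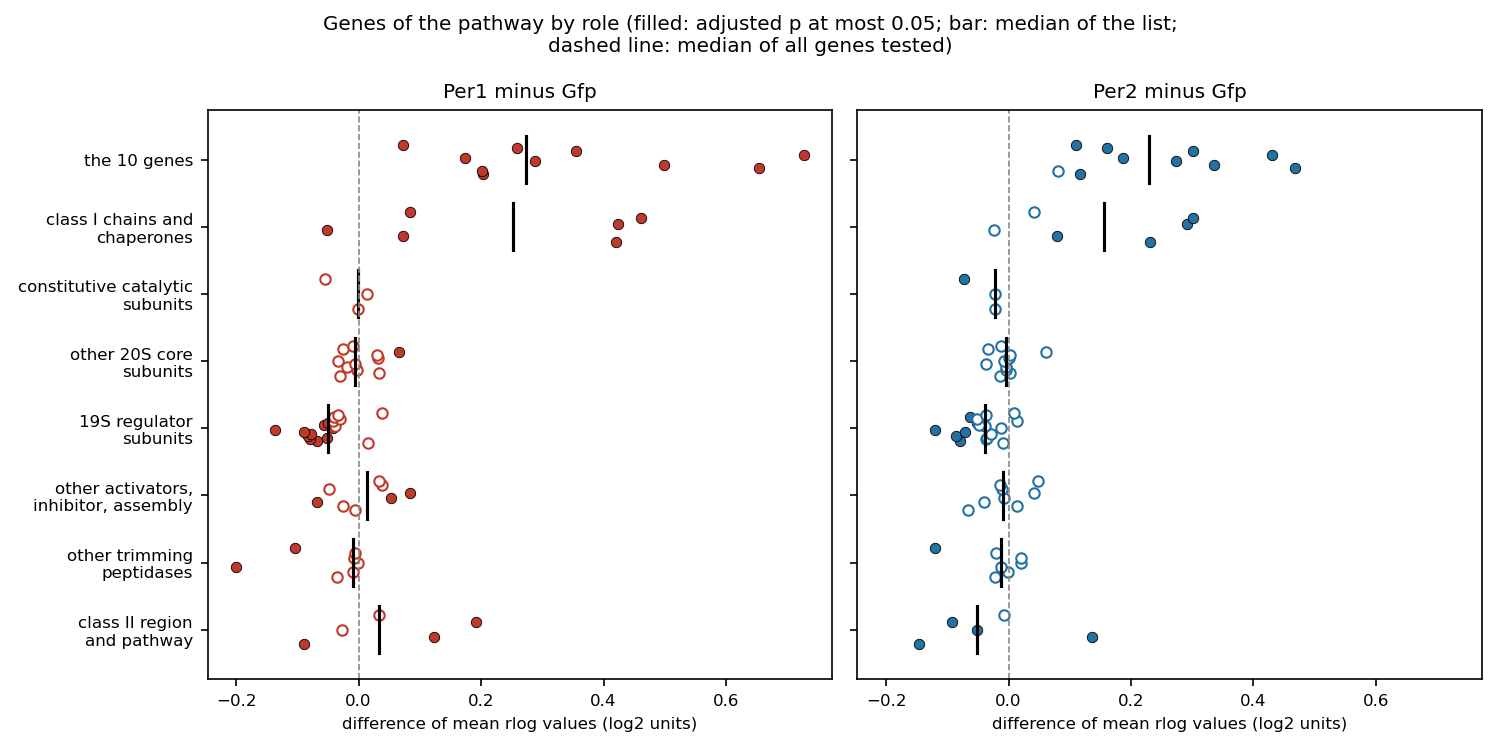
Difference of mean rlog values (horizontal axes, log2 units) for the genes of each role (rows), with Per1 minus Gfp on the left and Per2 minus Gfp on the right; filled points have an adjusted p of at most 0.05, black bars are list medians and the dashed line is the median of all genes tested. The 10 genes have medians of 0.27 and 0.23, and the 19S subunits lie mostly left of the dashed line.

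Many class II genes around Tap1, Tap2, Psmb8 and Psmb9 were measured at low values. Of 11 genes of the class II region and pathway, 6 were below the filter on low values in both experiments, among them the class II chains H2-Aa, H2-Ab1 and H2-Eb1. H2-DMa, a class II peptide editor, was higher with Per1 (0.19, adjusted p = 0.0015) and lower with Per2 (-0.093, adjusted p = 0.030, limma). Brd2, a chromatin reader whose gene lies in the same region, fell by 0.090 with Per1 and by 0.15 with Per2. Cd74, the invariant chain, was higher by 0.12 and 0.14, and Ciita, the class II transactivator, had values of 4.89 and 4.92 in Per1 and Gfp libraries (difference -0.027, adjusted p = 0.38, limma) and was lower with Per2 (-0.052, adjusted p = 0.027).

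The genes most like the 10 in pattern were sought among 20153 genes tested in both experiments, a number that includes the 10. The 10 and genes named by a model number were left out of the ranking. The measure was Pearson's r, across 20 libraries. It was taken between a gene's deviations from its experiment mean and the mean of those deviations over the 10 genes. The points share the experiment and the Per treatment, so r describes the pattern and carries no test. Highest were Zbp1 (r = 0.989), Isg15 (0.988), Apol9a (0.988), Ifit1 (0.985) and H2-T22 (0.983). Isg15, a ubiquitin-like modifier, was higher by 1.08 with Per1 and 0.78 with Per2, and Ifit1, which binds foreign RNA, by 1.13 and 0.70. Zbp1, a nucleic acid sensor, was higher by 0.83 and 0.66, Apol9a by 0.86 and 0.61, and the nonclassical class I gene H2-T22 by 0.38 and 0.25. The 10 genes themselves, each of which is part of the mean it is compared with, had r between 0.80 for Psmb10 and 0.98 for Tap1.

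Leukocytes express the immunoproteasome strongly, and their markers were examined for that reason. Of 14 leukocyte markers, 7 passed the filter in the Per1 experiment, of which Itgam was higher and Cd68 lower, and 8 passed in the Per2 experiment, of which Cd68 and Itgam were lower. These counts are near the shares of all genes tested, 20.1% higher and 20.6% lower with Per1 and 18.6% higher and 17.5% lower with Per2. The mean over the 14 markers was 2.93 to 2.95 in Per1 libraries and 2.93 to 2.96 in Gfp libraries, and 3.19 to 3.20 in Per2 libraries and 3.22 to 3.24 in theirs. The levels of single markers ran widely. Adgre1 was at -1.86 in Per1 libraries and -1.87 in their Gfp libraries and Tyrobp at -1.58 in both, and each was at 0 in all libraries of the Per2 experiment. Since the rlog values were made separately for each experiment, that 0 is not a higher level than the negative values. Ptprc was at 2.69 in Per1 libraries and 2.67 in Gfp libraries, and at 3.34 in Per2 libraries and 3.35 in theirs. Cd68 was at 8.13 with Per1 and 8.21 with Gfp, and at 7.96 with Per2 and 8.16 with Gfp. Itgam was at 8.42 with Per1 and 8.31 with Gfp, and at 8.24 with Per2 and 8.41 with Gfp. The part of leukocytes in the differences of the 10 genes was not tested beyond these levels.

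Several of the 10 genes overlap another gene, and the strand setting of the counting is not given in the sources used here. Tapbp overlaps Zbtb22 on the same strand and shares 17.6% of its 31-base sequences with it, and Zbtb22 differed by 0.025 with Per1 (adjusted p = 0.20) and 0.081 with Per2 (adjusted p = 0.0031, limma). The annotated spans of Psmb9 and Tap1 overlap by 743 bases on opposite strands in GENCODE M39, so the values of both are uncertain by reads from that stretch. On opposite strands, Tapbpl overlaps Vamp1 (-0.045 and -0.061), Psme1 overlaps Emc9 (0.071 and 0.098), Erap1 overlaps Cast (0.031 and 0.075), Psme2 overlaps Rnf31 (-0.0067 and 0.069) and Psmb10 overlaps Gm16156 (-0.041 and -0.050), where the values are log2 differences with Per1 and Per2. Each of these partners differed by less than its overlapping gene with Per1, and by less with Per2 too. Tap2 overlaps Gm15821 on the opposite strand, which was higher by 0.069 and 0.053 (adjusted p = 0.0041 and 0.012, limma). Psmb8 and Tap2 also overlap Gm20496 on the opposite strand, which was below the filter on low values. Tapbp further overlaps Gm19412 (0.076 and 0.0068) and Gm64688, both on the opposite strand, and the latter was not examined.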

How the data were processed

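RNA sequencing libraries of C2C12 myotubes were used in 4 groups of 5, assigned from the sample labels, with the Gfp libraries of each experiment taken by number series. The authors selected poly(A) RNA, mapped and counted reads by gene with STAR and deposited regularized log2 (rlog) values made with DESeq2, for 55335 genes. The genome is GRCm39 in the methods and mm10 in the submitters' processing notes, and the labels and the methods also differ in library kit, sequencer and read length. Depth is unknown, and the strand setting is not given in the sources used here. The 2 experiments were normalized separately: 2712 genes had 0 throughout the Per1 experiment but not the Per2 experiment, and 2391 the reverse.

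Within each experiment, genes whose mean rlog reached 3 entered limma 3.58.1 in R 4.3.3 (two-sided, prior variance with a trend, p-values adjusted by Benjamini-Hochberg over all genes tested). Calls needed an adjusted p no higher than 0.05 together with a log2 difference of 0.5 or more in size. Subunit pairs were compared with a two-sided exact permutation test (scipy 1.17.1), adjusted over 6 pairs. Symbols were matched by gene ID to GENCODE M39 (51654 IDs), positions come from RefSeq GRCm38.p6, and promoter windows from RefSeq on the same build. Overlaps and shared 31-base sequences were computed with GENCODE M39.

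The rule for the 10 genes uses names and no measured value, but these genes and the lists, markers and tests were chosen with earlier results of these data known. Of the lists with up to 11 genes, members are named with their values. A gene of the regulator list is not reported here, so no counts are given for that list and it is not plotted. The most alike genes are the 5 with the highest r, model numbers left out. Alternatives were leaving out each library, a replicate block, limma's treat, array weights, a fit with no trend, quantile normalization, centring on the median, filters at 5 or at no value and, for subunit pairs, the mean of the other 20S subunits as the counterpart. The labels give no origin that same-numbered libraries share, and their deviations were not correlated throughout, so the block was kept as an alternative.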

Additional observations from a re-analysis of the deposited data

Results flagged for a closer look

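Within groups of 5, the highest or lowest library was checked for its distance from the rest in 136 groups, of which 12 stood out, against 6.8 from chance at 5%. Of 40 groups of the 10 genes, 1 stood out: Gfp library 14 of the Per1 experiment was the lowest for Psmb8, at 6.87. The same library was the lowest for Psmb8 minus Psmb5, at -7.42, and Gfp library 11 of that experiment was the highest for Psmb9 minus Psmb6, at -8.42.

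Among the other genes, the library that stood out was in the Per1 experiment for Psmb7 (Per1 library 12, high, 15.08), Canx (Per1 library 13, high, 16.55), Apol9a (Per1 library 11, low, 12.91), B2m (Gfp library 13, low, 15.56) and Irf1 (Gfp library 15, high, 12.43). It was in the Per2 experiment for Calr (16.96) and Pdia3 (15.91), both lowest in Per2 library 1, for Irf2 (Per2 library 2, high, 11.65) and for Rfx5 (Gfp library 2, high, 11.66).

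The markers Itgam (0.10 with Per1 and -0.17 with Per2) and Cdh5 (0.069 with Per1 and -0.050 with Per2) moved in opposite directions in the 2 experiments with groups that did not overlap. The difference between experiments was not tested.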

How the results depend on the processing

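Across the alternatives, no value of the 10 genes changed direction, 329 stayed on their side of the threshold, 10 no longer passed and 1 newly passed. With Per1, the 2 called genes became 1 (Tap1) with limma's treat and 2 to 3 when a library was left out, and 3 (Psmb9 added) with array weights or with the library number as a replicate block, and 9 of 10 genes were higher at the adjusted p alone with median centring or with the library number as a replicate block, which both lost Tapbpl. With Per2, 1 gene (Psmb8) was called with array weights, and 0 to 1 when a library was left out. Counts at the adjusted p alone were then 6 with no filter, which lost Erap1, Tapbp and Tapbpl, and 8 with median centring (without Erap1) or quantile normalization (without Tapbpl). Leaving out a library gave 10 with Per1 and 8 to 10 with Per2.

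Median centring moved the median of all genes to -0.021 in both experiments and the split of genes at the adjusted p alone to 3080 higher and 5912 lower with Per1, against 4131 and 4232, and to 2765 higher and 5118 lower with Per2, against 3842 and 3600. With treat, 38 genes were called higher and 15 lower with Per1, and 11 and 17 with Per2.

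Same-numbered libraries correlated at -0.10 to 0.18, so a pairing was not established by the data, and the sources used here state none. With these numbers as a replicate block, the changes of the subunit pairs Psmb8, Psmb9 and Psmb10 were 0.67, 0.49 and 0.24 with Per1 (exact p = 0.125 each, the smallest that 4 pairs allow) and 0.49, 0.36 and 0.15 with Per2 (exact p = 0.0625, 0.0625 and 0.125, where 5 pairs allow 0.0625). With the mean of the other 20S subunits as the counterpart, Psmb10 with Per2 changed by 0.084 (exact permutation p = 0.0714). The causes of these shifts were not tested. What limits the values is the unknown depth and the rlog scale, which draws differences of weakly measured genes toward 0, the single cell line, libraries of 1 experimental replicate and a viral concentration that goes with the Per groups.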

Other observations

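Markers of other cell states were measured beside the 10 genes, and their part in those differences was not tested. Over all genes tested, 20.1% were higher and 20.6% lower with Per1, and 18.6% higher and 17.5% lower with Per2, and the counts below of 3 of 10, of 1 of 6 and of 1 of 5 are near those shares. Of 10 myotube markers, 9 were lower with Per1, among them Mymx, a fusion protein (-0.28), and Tnnt3, a fast troponin (-0.20), and with Per2 3 were lower, among them Myh8 (-0.31), and Myh3 was higher (0.11). Myf5, a myoblast regulator, was at 13.36 in Per1 libraries and 12.83 in Gfp libraries (0.53), and at 12.60 in Per2 libraries and 12.46 in theirs (0.14). Of 6 markers of proliferating myoblasts, 3 were higher and 1 was lower with Per1, and 3 were higher with Per2. Dcn, the matrix proteoglycan decorin, was higher by 0.32 and 0.25, and Dpt, dermatopontin, by 0.24 and 0.62, while Pdgfra and Lum, the remaining markers of fibro-adipogenic cells, did not pass (limma). Of 7 endothelial markers, 5 passed the filter in each experiment, of which 2 were higher and 1 was lower with Per1 and 3 were lower with Per2.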
